A study of Homo sapiens with 4 samples.

Results

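The 763 regions described here are stretches of chromatin in 6T-CEM, an established human leukaemia line labelled as T-ALL (T-cell acute lymphoblastic leukaemia), where ETS1 and RUNX1 peaks coincided beside the ends of at least 2 protein-coding genes. Binding was profiled by CUT&Tag, in which an antibody tethers the transposase Tn5 to chromatin, with 2 libraries for ETS1 and 2 for RUNX1, and the authors called peaks in each library against IgG, a control antibody. The labels name the line and the antibody but no treatment or genetic change, and do not say whether both libraries of a factor are from cultures grown apart, so a spread over libraries may be technical. For each factor, touching peaks were joined across its libraries, and a joined region counted only with peaks from both. An ETS1 region became a member if it overlapped a RUNX1 region by at least 1 bp and its midpoint lay within 1000 bp of the outer ends of 2 or more different coding genes. Members were thus chosen by measured peak calls, which selected 763 of 4953 shared ETS1-RUNX1 regions (15.4%) and of 5055 ETS1 regions in all. A further 16 ETS1 regions near 2 or more genes had no RUNX1 region and were not members. Of the members, 727 lay near 2 genes, 35 near 3 and 1 near 4, and together they touched 1528 genes. Since called peaks chose the members, their presence and their fold enrichment over IgG are given as descriptions, without a test.

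The ETS1 lists held 6082 and 5625 peaks and the RUNX1 lists 25360 and 25001. Read depth is not in the lists, but the number of reads or fragments stacked at each summit (the pileup) could be solved from the deposited fold and p-value. Its median in the 763 regions was 67.0 and 62.0 for ETS1 and 156 and 143 for RUNX1. At the ends of 7 genes that mark T cells, such as CD3D and LCK, ETS1 regions lay at 4 and RUNX1 regions at 6, beside 18.1% of all coding genes for ETS1 and 44.0% for RUNX1. Among short lists for other lineages, no gene had an ETS1 region, and RUNX1 was found at 1 of 5 B-cell genes, 1 of 4 red-cell genes and 0 of 5 myeloid genes. In longer lists ETS1 was at 1 and RUNX1 at 4 of 12 B-lineage markers, and at 0 and 2 of 19 myeloid and erythroid markers.

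Many human genes lie in close pairs. Where both genes start from the same stretch and run apart (a head-to-head pair), that stretch is a bidirectional promoter, and such promoters are common among housekeeping, DNA repair and replication genes. In head-to-tail pairs the start of a gene lies just beyond the end of its neighbour, and in tail-to-tail pairs only the ends of transcription face each other. ETS factors recognise a GGAA core and are frequent at promoters rich in CpG. RUNX1, with its partner CBFB, recognises a TGTGGT-like site and is known for binding enhancers as well as promoters in blood cells.

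Sequences between the starts of head-to-head pairs are shown first, because they display what a bidirectional promoter of this kind holds. They are the bases strictly between the outermost starts of both genes, on the plus strand and 5′ to 3′, from RefSeq promoters of GRCh38.p14 (the assembly of hg38). Of 222 non-overlapping member pairs whose interval of 20 to 300 bases could be read in full, 5 held both a strict ETS motif (CCGGAAG) and a RUNX motif (TGTGGT or TGCGGT), on either strand. These 5 were picked for their letters, and capitals mark both motifs. They lie at chr7:112206400-112206694, chr16:29996097-29996240, chr12:121888612-121888789, chr5:34915505-34915710 and chr16:8797640-8797838, in the order printed.
DOCK4/ZNF277: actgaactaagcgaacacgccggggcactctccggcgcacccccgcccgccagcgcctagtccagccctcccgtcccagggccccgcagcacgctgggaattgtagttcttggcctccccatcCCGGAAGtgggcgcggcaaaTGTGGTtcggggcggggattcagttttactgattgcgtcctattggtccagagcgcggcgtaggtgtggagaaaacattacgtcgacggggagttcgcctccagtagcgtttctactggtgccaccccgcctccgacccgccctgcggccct
HIRIP3/INO80E: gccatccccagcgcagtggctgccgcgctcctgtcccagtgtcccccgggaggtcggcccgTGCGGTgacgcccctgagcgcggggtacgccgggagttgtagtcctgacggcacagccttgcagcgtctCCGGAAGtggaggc
HPD/PSMD9: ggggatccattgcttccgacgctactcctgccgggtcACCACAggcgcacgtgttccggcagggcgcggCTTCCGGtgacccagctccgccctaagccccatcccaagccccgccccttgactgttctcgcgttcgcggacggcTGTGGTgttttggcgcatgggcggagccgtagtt
RAD1/BRIX1: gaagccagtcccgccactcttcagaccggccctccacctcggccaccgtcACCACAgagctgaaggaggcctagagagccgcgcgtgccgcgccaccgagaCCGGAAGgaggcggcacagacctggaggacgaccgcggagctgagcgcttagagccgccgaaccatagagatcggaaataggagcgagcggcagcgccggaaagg
TMEM186/PMM2: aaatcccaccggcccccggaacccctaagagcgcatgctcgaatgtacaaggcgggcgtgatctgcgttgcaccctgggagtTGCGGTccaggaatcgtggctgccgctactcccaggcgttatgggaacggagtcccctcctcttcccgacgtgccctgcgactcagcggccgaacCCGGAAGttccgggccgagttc

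None of the 5 was among the strongest members. Only at HIRIP3/INO80E did all 4 summits lie inside the printed interval, 118 bp from the lower start. All 4 lay below the lower start at RAD1/BRIX1 (-20 to -17 bp) and TMEM186/PMM2 (-85 to -47 bp). At DOCK4/ZNF277 the ETS1 summits lay below it too (-199 and -198 bp). At HPD/PSMD9, ETS1 library 2 (192 bp) and both RUNX1 libraries (219 bp) had summits beyond the interval of 178 bases. RAD1, a subunit of the checkpoint clamp, and BRIX1, a ribosome assembly factor, shared a region of 3.34 and 3.81-fold for ETS1 and 12.8 and 12.4-fold for RUNX1. PSMD9, a proteasome assembly chaperone, and HPD, an enzyme of tyrosine breakdown, shared one of 5.01 and 6.41-fold for ETS1 and 11.6 and 10.3-fold for RUNX1. DOCK4/ZNF277 was weak for both factors, at 3.54 and 3.12-fold for ETS1 and 4.71 and 4.60-fold for RUNX1. Both motifs were in 5 of 222 member intervals (2.25%). They were in 3 of 227 intervals with RUNX1 without ETS1 (1.32%) and 1 of 157 with neither factor (0.637%). The Wilson intervals of these shares overlap widely (0.966 to 5.16, 0.450 to 3.81 and 0.113 to 3.52). The member sequences were also longer, with medians of 165, 126 and 117 bases, which leaves more room for a match. No link between both motifs and binding is drawn from these shares. The ETS motif was in 24.3%, 24.7% and 21.7% of the same groups. The next set shows single members and other pairs with and without the motifs. ZNF829/ZNF568 (chr19:36916292-36916331), a pair of zinc finger genes, was a member with an ETS motif in a short interval, and HSPD1/HSPE1 (chr2:197500275-197500378), the mitochondrial chaperonin and its co-chaperonin, was a member with neither motif. HARS1/HARS2 (chr5:140691371-140691454), the cytosolic and mitochondrial histidyl-tRNA synthetases, held 2 ETS motifs, and RECQL/GOLT1B (chr12:21501636-21501788), a DNA helicase and a Golgi protein, held an ETS and a RUNX motif. Neither of these pairs had a reproducible region of either factor near both genes. SARS2/MRPS12 (chr19:38930764-38930943), of mitochondrial translation, had RUNX1 without ETS1. Capitals again mark ETS and RUNX motifs.
ZNF829/ZNF568: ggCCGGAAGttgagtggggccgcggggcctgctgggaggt
HSPD1/HSPE1: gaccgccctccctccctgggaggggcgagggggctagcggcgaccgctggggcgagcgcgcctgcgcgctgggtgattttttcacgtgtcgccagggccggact
HARS1/HARS2: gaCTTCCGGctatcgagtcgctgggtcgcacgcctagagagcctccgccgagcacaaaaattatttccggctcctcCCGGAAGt
RECQL/GOLT1B: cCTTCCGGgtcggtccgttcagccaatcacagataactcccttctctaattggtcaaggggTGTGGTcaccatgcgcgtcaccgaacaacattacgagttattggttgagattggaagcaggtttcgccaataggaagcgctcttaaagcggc
SARS2/MRPS12: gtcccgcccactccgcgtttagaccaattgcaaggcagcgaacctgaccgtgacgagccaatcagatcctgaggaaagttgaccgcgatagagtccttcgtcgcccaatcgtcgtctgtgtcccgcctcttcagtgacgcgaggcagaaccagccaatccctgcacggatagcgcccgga

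The last set shows 3 intervals between H2A and H2B histone genes, which carried high ETS1 folds, given further on. Here capitals mark CCAAT, the box bound by NF-Y, on either strand. H2AC14/H2BC14 (chr6:27814778-27815021) held 5 copies, H2BC13/H2AC13 (chr6:27807930-27808172) 4 and H2AC17/H2BC17 (chr6:27893186-27893424) 3, and none held an ETS or RUNX motif in the strict form searched. The box is not particular to these: of the intervals printed above, RECQL/GOLT1B, with neither factor, held 5 copies and SARS2/MRPS12, with RUNX1 without ETS1, held 4. H2AC14/H2BC14 and H2BC13/H2AC13 share an identical run of 93 bases in opposite orientation, so reads from these copies may be hard to assign, and how the authors' mapping treated repeated sequence is unknown here. At all 3 pairs the 4 summits lay outside the printed interval. They lay below the lower start at H2AC14/H2BC14 (-122 to -119 bp) and H2AC17/H2BC17 (-130 to -94 bp). At H2BC13/H2AC13 they lay 323 to 366 bp above it, beyond an interval of 243 bases.
H2AC14/H2BC14: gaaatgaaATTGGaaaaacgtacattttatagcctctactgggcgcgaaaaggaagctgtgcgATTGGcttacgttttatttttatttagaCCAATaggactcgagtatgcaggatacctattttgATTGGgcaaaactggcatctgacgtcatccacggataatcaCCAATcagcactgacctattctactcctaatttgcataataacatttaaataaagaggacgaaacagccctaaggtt
H2BC13/H2AC13: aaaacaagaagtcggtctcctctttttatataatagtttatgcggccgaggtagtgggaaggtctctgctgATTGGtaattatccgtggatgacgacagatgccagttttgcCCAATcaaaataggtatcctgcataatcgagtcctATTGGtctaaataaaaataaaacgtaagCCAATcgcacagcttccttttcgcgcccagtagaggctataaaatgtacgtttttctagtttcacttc
H2AC17/H2BC17: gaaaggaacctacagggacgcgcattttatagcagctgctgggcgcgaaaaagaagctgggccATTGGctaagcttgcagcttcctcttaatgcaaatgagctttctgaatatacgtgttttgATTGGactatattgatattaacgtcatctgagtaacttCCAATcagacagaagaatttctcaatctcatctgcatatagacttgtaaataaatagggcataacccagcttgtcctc

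Head-to-head was the most frequent setting of the members. The strand of both nearest genes was known for all but 170 members, and by their nearest pair of ends 426 members (55.8%) were head-to-head, with a median of 254 bp between the ends. Another 110 (14.4%) were head-to-tail, 35 (4.59%) lay at starts on the same strand, 11 at a start beside an opposite end and 11 (1.44%) were tail-to-tail. In 323 of the 426 head-to-head members the genes did not overlap, and in 103 the outermost transcripts ran into each other. The starts on the same strand had a median gap of 0 bp, as transcripts of overlapping genes can share a start. Read-through genes were found at 23 members and genes with only a LOC number at 30.

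The share of close gene pairs that carried a member depended on which ends faced each other. A close pair is 2 different coding genes with ends at most 2000 bp apart, and 837 of 4939 such pairs (16.9%) had a member region near both genes. With only peaks reaching a −log10 q of 20 there were 448 members, at 10.3% of close pairs, and the head-to-head excess over head-to-tail pairs was 15.1 percentage points, against 23.3 with all peaks. With all peaks the share was 38.2% (458 of 1199, 95% Wilson interval 35.5 to 41.0) for head-to-head pairs, 31.5% (24.5 to 39.4) for starts on the same strand and 14.9% (125 of 841, 12.6 to 17.4) for head-to-tail pairs. It was 1.52% (14 of 921, 0.908 to 2.54) for tail-to-tail pairs. Intervals cover counting error only, and neighbouring pairs can share a gene. The RUNX1 regions alone followed the same order, since 67.8% of head-to-head, 26.2% of head-to-tail and 3.91% of tail-to-tail pairs had a RUNX1 region near both genes. Among head-to-head pairs with RUNX1 there, those with a member came to 56.3% as a ratio of the 2 counts, against 56.8% in head-to-tail pairs.

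**Figure D1:**
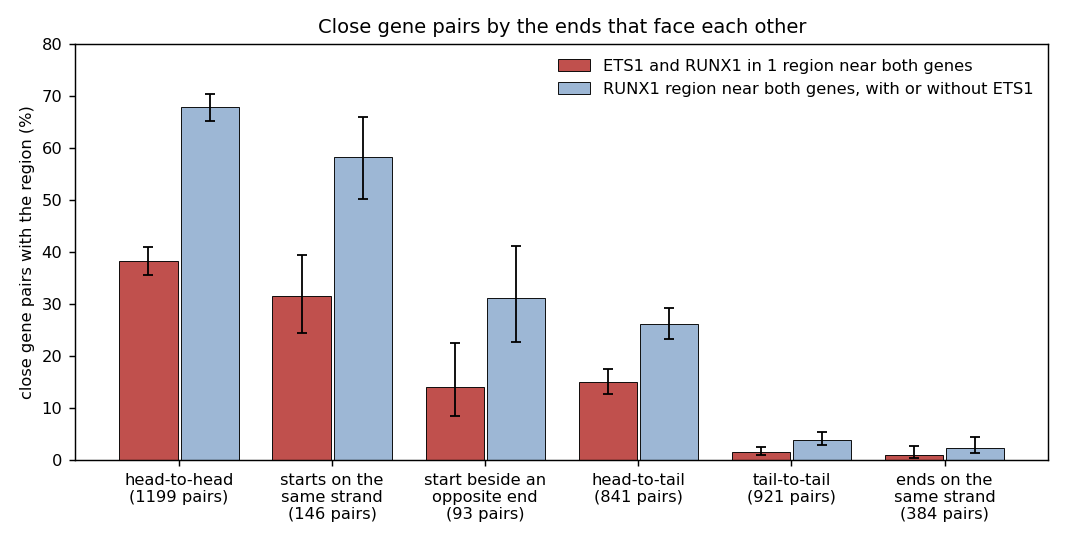
Close gene pairs with a region near both genes, in percent of the pairs of each orientation, for regions with ETS1 and RUNX1 (red) and for RUNX1 regions with or without ETS1 (blue), with 95% Wilson intervals. Head-to-head pairs reached 38.2% and 67.8%, and tail-to-tail pairs 1.52% and 3.91%.

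Among head-to-head pairs, the share with a member was lower at the closest spacing than at 251 to 500 bp. A member was found at 25.2% of pairs with 0 to 100 bp between the starts (20 to 31.2), 40.9% at 101 to 250 bp, 52.7% at 251 to 500 bp (47.0 to 58.4) and 42.3% at 501 to 1000 bp (35 to 50), where the interval overlaps that of the bin before it. At 1001 to 2000 bp the share was 8.74%, but there the rule itself leaves little room for a midpoint within 1000 bp of both starts. RUNX1 without ETS1 was at 39.6% of pairs at 0 to 100 bp (33.5 to 46.0) and 32.2% at 251 to 500 bp (27.1 to 37.8), with overlapping intervals.

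ETS1 was found at a larger share of RUNX1 regions where 2 genes met than where 1 gene ended. Of 1445 RUNX1 regions near 2 or more genes, 730 held an ETS1 region (50.5%, 47.9 to 53.1), against 32.2% (31.1 to 33.4) of 6388 near 1 gene, 12.7% of 14969 near none and 20.6% of all 22802 RUNX1 regions. The order was the same in each tertile of RUNX1 fold, with borders at 6.26 and 11.20-fold. At head-to-head starts the share with ETS1 was 26.6% in the lowest tertile (21.5 to 32.5), 48.5% in the middle tertile (42.6 to 54.5) and 84.0% in the highest tertile (79.0 to 87.9). At single 5′ ends it was 8.79% (7.51 to 10.3), 33.2% (31.1 to 35.5) and 64.4% (61.9 to 66.8) in the same tertiles. The median RUNX1 folds of these groups were close, at 4.67, 8.02 and 15.7 for head-to-head regions and 4.71, 8.2 and 16.5 for single 5′ ends.

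**Figure D2:**
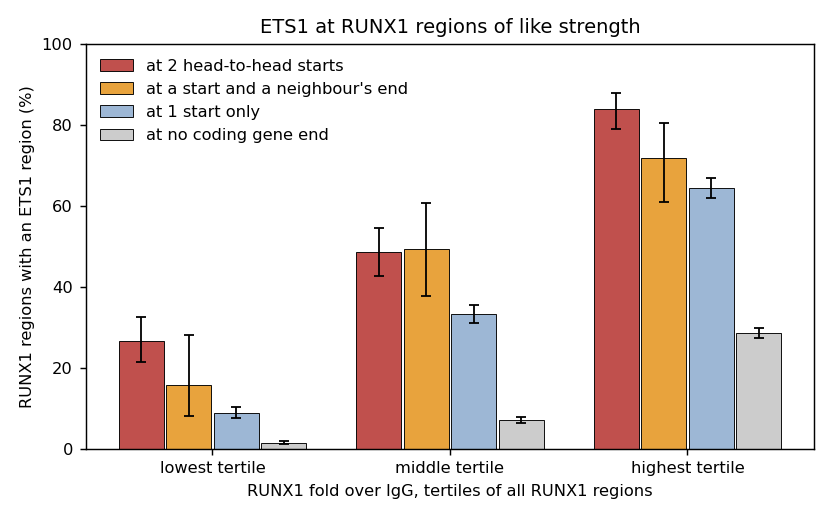
RUNX1 regions that hold an ETS1 region, in percent, by tertile of RUNX1 fold over IgG and by gene setting, with 95% Wilson intervals. In each tertile the head-to-head regions (26.6%, 48.5% and 84.0%) stood above regions at 1 start (8.79%, 33.2% and 64.4%), and head-to-tail regions lay close to them in the middle tertile.

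Per library, summits near the ends of 2 or more genes made up 14.4% and 14.9% of ETS1 peaks and 6.01% and 6.06% of RUNX1 peaks. The libraries of the antibodies did not overlap, and the means were 14.6% ± 0.330 for ETS1 and 6.03% ± 0.0384 for RUNX1 (SD, n = 2 each). The difference of 8.61 percentage points was far larger than the spread between libraries, but the two-sided exact permutation test of 4 libraries gave p = 0.333, the smallest value that 2 against 2 allow. Among summits near any gene end, 25.8% and 26.0% of ETS1 summits and 18.2% and 18.5% of RUNX1 summits were near 2 or more genes.

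The folds of the members spanned a wide range for both factors. ETS1 fold was 2.49 to 58.8 in library 1 and 2.37 to 59.1 in library 2, with medians of 5.91 and 6.00. RUNX1 fold was 2.80 to 135 and 2.87 to 126, with medians of 11.9 and 11.8. Shared regions at a single gene end had medians of 5.78 and 5.78 for ETS1 and 13.3 and 12.8 for RUNX1, and those at no gene end had 20.8 and 20.7 for RUNX1. The small differences between members and single-end regions changed sign with the processing: the ETS1 difference of 0.175 became -0.0700 when only peaks reaching a −log10 q of 20 were kept and -0.0502 with ends within 500 bp, and the RUNX1 difference of -1.19 became 0.288 under a reciprocal overlap of 50%. ETS1 regions of members had a median width of 785 bp, against 681 bp at single ends. Over the 763 members, which are not replicates, Spearman's rho between libraries was 0.942 for ETS1 and 0.973 for RUNX1, and that between the mean folds of the factors was 0.540. Both antibodies were set against IgG, and the part of that shared denominator in the last value was not tested.

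**Figure D3:**
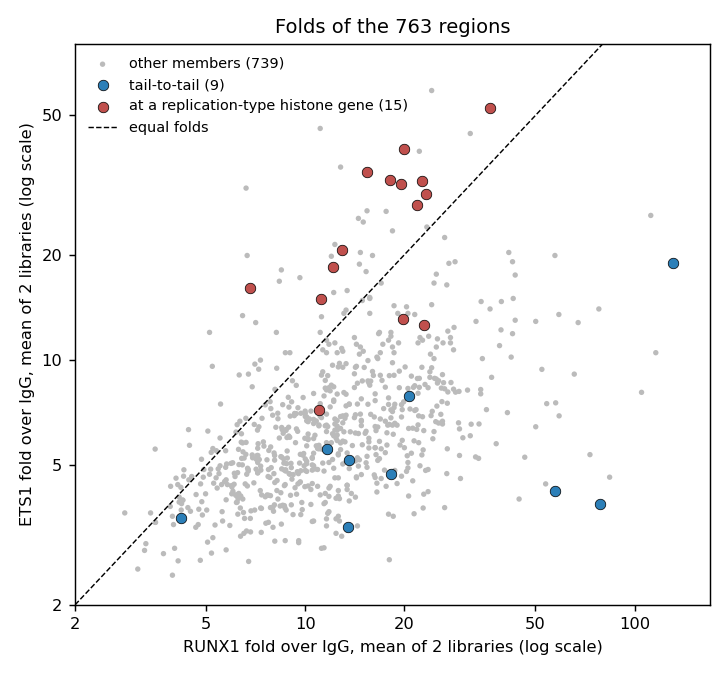
Mean fold over IgG of ETS1 (vertical) and RUNX1 (horizontal) in each of the 763 members, both on log scales, with members at replication-type histone genes in red and other tail-to-tail members in blue. Of the 15 histone members, with mean ETS1 folds of 7.18 to 52.5, 12 lie above the line of equal folds, which 79 of all members exceed.

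Histone genes stood at 4 of the 10 members strongest for both factors. Ranked by the lower of the mean folds, the first was H3C2/H2AC4 (chr6:26031508-26032724), encoding core histones H3 and H2A, with ETS1 at 51.4 and 53.6-fold and RUNX1 at 36.2 and 36.3-fold. PIP4K2B/CWC25 (chr17:38798856-38800326), a phosphoinositide kinase and a splicing factor in head-to-tail order, followed with ETS1 at 43.6 and 45.3-fold and RUNX1 at 33.1 and 30.3-fold. At both, ETS1 exceeded RUNX1 in every library. ANGPTL6/PPAN (chr19:10104783-10106630), where PPAN encodes a ribosome assembly factor, had ETS1 at 26.3 and 25.5-fold and RUNX1 at 110 and 114-fold. Its starts lie only 33 bp apart, and all 4 summits lay 1138 to 1164 bp below the lower start, on the ANGPTL6 side. CA11/DBP (chr19:48636377-48640194), where DBP encodes a transcription factor of the circadian clock, had the highest ETS1 fold of all members, at 58.8 and 59.1-fold. Its RUNX1 folds of 16.2 and 32.2 differed between the libraries. The rest of the first 10 were ASH1L/MSTO1 and AP3D1/DOT1L, which include the histone methyltransferases ASH1L and DOT1L, PHRF1/LOC124902805 and the histone pairs H1-5/H2AC16, H2BC12/H2AC12 and H2BC11/H2AC11. Their mean folds were 22.4 to 39.5 for ETS1 and 21.8 to 26.5 for RUNX1.

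The ratio of ETS1 to RUNX1 fold differed widely between members. These folds come from different antibodies, so their ratio is not a measure of relative occupancy. RUNX1 had the higher mean fold at all but 79 members (10.4% with ETS1 higher), against 150 of 2111 single-end regions (7.11%) with ETS1 higher. The highest ratio of ETS1 to RUNX1 was at SNX8/EIF3B (chr7:2353638-2355639), an endosomal sorting nexin and a subunit of translation initiation factor eIF3, with ETS1 at 31.0 and 31.1-fold and RUNX1 at 6.80 and 6.42-fold, a ratio of 4.70. The ratio was also high at ANKRD13A/GIT2 (chr12:109998819-109999792), where ETS1 was 20.6 and 19.2-fold and RUNX1 7.53 and 5.78-fold. In both members every ETS1 value lay above every RUNX1 value.

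The 5 members with the highest RUNX1 fold, one of which is ANGPTL6/PPAN above, ranged widely in ETS1. STAT3/STAT5A (chr17:42312138-42313615) led, with ETS1 at 18.6 and 19.3-fold and RUNX1 at 135 and 126-fold. JPT2/CRAMP1 (chr16:1678018-1678728) had ETS1 at 10.7 and 10.3-fold and RUNX1 at 116-fold in both libraries, and DIABLO/LOC128125816 (chr12:122227272-122227736), at the gene of a mitochondrial activator of apoptosis, had ETS1 at 8.13 and 8.04-fold and RUNX1 at 102 and 109-fold. KRI1/ATG4D (chr19:10552093-10553285), a nucleolar protein and an autophagy protease, had ETS1 at 5.01 and 4.26-fold and RUNX1 at 83.3 and 84.8-fold. At some members the strongest RUNX1 summit lay far from that of ETS1. The distance was 1302 bp at KRI1/ATG4D, 1854 bp at LEF1/LOC124900752 and 2058 bp at NFIX/LYL1, the 3 members with the lowest ETS1 to RUNX1 ratio (0.0552, 0.0733 and 0.0493). LEF1, which acts with beta-catenin in Wnt signalling, had ETS1 at 6.09 and 4.65-fold and RUNX1 at 73.2 and 73.3-fold. LYL1, a basic helix-loop-helix factor known as an oncogene in T-ALL, had ETS1 at 4.37 and 3.39-fold and RUNX1 at 79.5 and 77.9-fold. Mean summits lay over 500 bp apart in 48 members (6.29%), and the median distance in all members was 55.5 bp, against 54.0 bp at single ends.

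At most members with replication-type histone genes ETS1 had the higher fold. These genes lie in clusters and are transcribed in S phase. Of the 69 in the list, ETS1 regions lay at 55 (79.7%) and RUNX1 regions at 54 (78.3%), against 18.1% and 44.0% of all coding genes. A neighbour within 2000 bp was found for 53, and 31 of these (58.5%) touched a member. That share was 21.2% for all coding genes with a close neighbour. Whether the 58.5% goes beyond the general share of ETS1 regions at histone genes was not tested. The 31 genes lay at 15 members. ETS1 had the higher mean fold in 12 of these 15 (80%), against 79 of all 763 members. The median of the mean ETS1 folds was 27.8 in the histone members and 5.99 in all members, and the medians for RUNX1 were 19.5 and 12. The median ETS1 pileup was 119 and 106 in the histone members, against 67.0 and 62.0 in all members, and the RUNX1 pileup was 93.0 and 89.0 against 156 and 143. The median IgG expectation at the ETS1 summits was 4.10 and 3.21 in the histone members, against 10.1 and 9.10 in all members, and this expectation is the denominator of the fold. The pileups, which do not contain IgG, were higher for ETS1 and lower for RUNX1 than in all members.

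The libraries showed this at single members. At H2AC14/H2BC14, printed above, ETS1 was 43.8 and 36.5-fold and RUNX1 21.7 and 18.3-fold, with pileups of 119 and 93 for ETS1 and 64 and 52 for RUNX1. At H2BC17/H2AC17 (chr6:27891966-27894754), ETS1 was 29.5 and 35.8-fold and RUNX1 17.0 and 19.2-fold. At H2BC8/H2AC8 (chr6:26215280-26217459), ETS1 was 36.5 and 32.5-fold and RUNX1 16.3 and 14.5-fold. The ETS1 and RUNX1 summits of H2BC8/H2AC8 lay 722 bp apart, so its folds were read at different places in the region. In these 3 members the ETS1 and RUNX1 values did not overlap. The 3 histone members with the higher fold in RUNX1 were H3C13/H2BC18, with mean folds of 12.6 for ETS1 and 22.9 for RUNX1, H3C1/H4C1, with 13.1 and 19.8, and LOC105369669/H4C16, with 7.18 and 11.0. At H2BC11/H2AC11 (chr6:27131513-27134102), the ETS1 summits lay 156 and 160 bp below the lower start and the RUNX1 summits 325 and 395 bp above it, on opposite sides of an interval of 247 bases. At H2AC14/H2BC14 all 4 summits lay 119 to 122 bp below the lower start, on the H2AC14 side rather than between the starts.

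Summits did not simply sit midway between head-to-head starts. Over the 323 non-overlapping head-to-head members, 46.4% and 48.3% of ETS1 summits and 44.0% and 42.1% of RUNX1 summits lay between the starts, while the ETS1 region spanned both starts in 74.0% of them. The distance from the summit to the middle did not grow steadily with the gap. With 0 to 100 bp between the starts its median was 122 and 137 bp for ETS1 and 128 and 127 bp for RUNX1, with 251 to 500 bp it was 97.0 and 84.8 bp for ETS1 and 100 and 102 bp for RUNX1, and with 501 to 1000 bp it was 131 and 145 bp for ETS1 and 142 and 155 bp for RUNX1. At the closest pairs, summits mostly lay outside the interval, and 14.0% and 10% of ETS1 summits and 10% and 8.0% of RUNX1 summits were between the starts. At gaps of 501 to 1000 bp, 87.5% and 84.4% of ETS1 summits and 87.5% in both RUNX1 libraries were between them.

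Summits of both factors mostly shared a side. All 4 summits lay on the same side of the middle in 244 of 323 members (75.5%, 70.6 to 79.9), and libraries of the same antibody lay on the same side in 91.3% for ETS1 and 92.3% for RUNX1. The rule requires overlapping regions, and summits of the factors lay a median of 51.2 bp apart in head-to-head members. A shared side partly follows from this closeness and is not a separate result. Over all 763 members the median distance of the summit from the middle of the nearest pair of ends was 170 and 176 bp for ETS1 and 176 and 187 bp for RUNX1. The means of 173 ± 4.60 and 182 ± 7.42 bp (SD, n = 2 each) differed by -8.50 bp, with overlapping libraries and an exact permutation p of 0.667, two-sided, in a test that cannot go below 0.333.

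**Figure D4:**
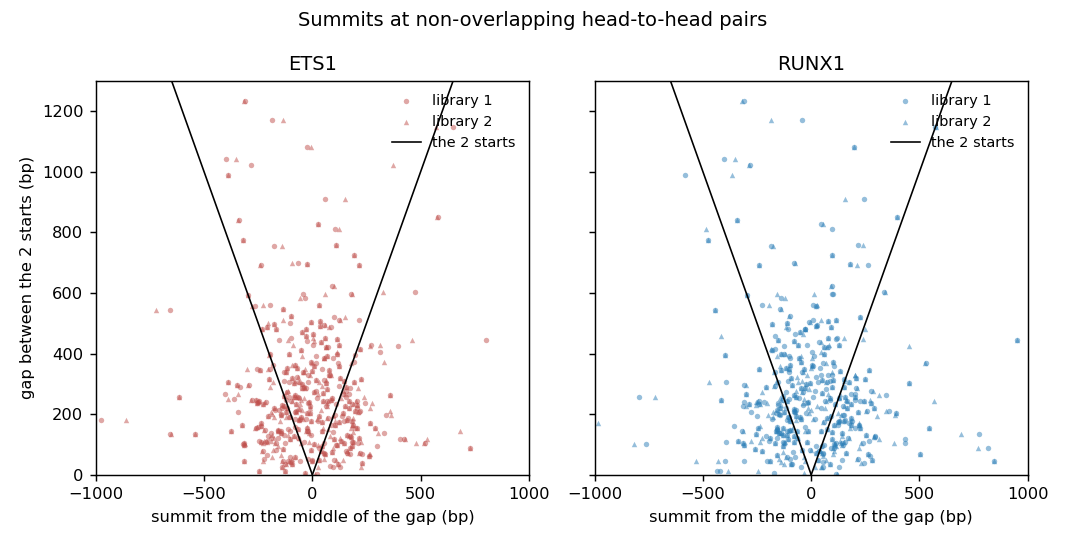
Position of ETS1 (left) and RUNX1 (right) summits in the 323 non-overlapping head-to-head members, in bp from the middle between the starts (horizontal, cut at 1000 bp), against the gap between the starts in bp (vertical), with circles for library 1, triangles for library 2 and lines at the starts. Summits lie on both sides of the middle, and at gaps of 0 to 100 bp 14.0% and 10% of ETS1 summits and 10% and 8.0% of RUNX1 summits fall between the lines.

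At the 11 tail-to-tail members the nearest pair of outer ends were both ends of transcription. STAT3/STAT5A lay in the 1381 bp between the ends of 2 genes of cytokine signalling. Its summits lay 81.0 bp apart on average, with the values given above. NFIX/LYL1 (chr19:13098089-13098685) and CIMIP2A/TUBB4B (chr9:137242613-137243061) were high for RUNX1, but their strongest RUNX1 summits lay 2058 and 1828 bp from the ETS1 summits. CIMIP2A/TUBB4B had ETS1 at 4.38 and 4.10-fold and RUNX1 at 62.4 and 52.3-fold. HCST/TYROBP (chr19:35903473-35904115), encoding DAP10 and DAP12, the signalling adaptors of natural killer cell receptors, had ETS1 at 4.68 and 4.78-fold and RUNX1 at 18.7 and 17.6-fold. The others were NPRL3/MPG, RNF167/PFN1, FTSJ3/DDX42, PPP6R2/SBF1, SMIM29/HMGA1, H1-5/H2AC16 and H2AC20/H2AC21/H2BC21. Of the 11, a start in the RefSeq promoter table lay within 1000 bp of the midpoint only in the H2AC20/H2AC21/H2BC21 cluster. All 426 head-to-head members and 107 of 110 head-to-tail members had such a start. This follows largely from their labels, which rest on the strands in that table and need a 5′ end near the midpoint. Starts of genes without an entry in that table were not analysed here. A start over 1000 bp from the midpoint but inside a wide region was not counted either, and the H1-5/H2AC16 region was 2980 bp wide. The median distance between ETS1 and RUNX1 summits was 158 bp in tail-to-tail members and 51.2 bp in head-to-head members.

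Sequence motifs were counted in 300 bases around the start of plus-strand genes (250 before and 50 after), so that each head-to-head pair counted once. The motifs searched, on both strands, were CCGGAAG for ETS, TGTGGT or TGCGGT for RUNX, CCAAT for NF-Y, GGGCGG for SP and KLF factors, GCGCATGC for NRF1, AAGATGGC for YY1, CACGTG for E-box factors and TGACGTCA for CREB, and none of these strings contains another. The ETS motif was in 27.0% of 430 head-to-head member promoters (23 to 31.4), 25.4% of 394 head-to-head promoters with RUNX1 without ETS1 (21.3 to 29.9) and 20.1% of 308 with neither (16.0 to 25), against 14.5% of all 8066 promoters searched. The RUNX motif was in 22.1%, 22.8% and 18.8% of the same groups, against 18.7% of all. The GC box GGGCGG was in 74.0% of member promoters, 72.3% with RUNX1 without ETS1 and 58.8% with neither, against 58.3% of all. The NRF1 and YY1 motifs were each in 7.44% of member promoters, the E-box in 12.3% and the CREB motif in 1.86%, against 4.44%, 3.98%, 9.16% and 2.63% of all. For the ETS and RUNX motifs the intervals of members and of promoters with RUNX1 alone overlapped widely.

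The CCAAT box differed more. It was in 44.9% of member promoters (40.2 to 49.6), 33.8% with RUNX1 without ETS1 (29.3 to 38.6) and 35.1% with neither (29.9 to 40.5), against 36.7% of all. Within the members it was in 38.7%, 45.5% and 50.3% from the lowest to the highest tertile of ETS1 fold, with overlapping intervals. The same was seen at single 5′ ends, with 45.8% in shared regions (42.5 to 49.1) and 35.2% in RUNX1 regions without ETS1 (32.9 to 37.6). The ETS motif also differed at those single 5′ ends, with 22.4% (19.7 to 25.3) and 17.7% (15.9 to 19.7). Within the head-to-head members it was in 28.2%, 31.5% and 21.4% from the lowest to the highest tertile of ETS1 fold, with overlapping intervals. The median GC content was 65.0% in member promoters, 66.0% with RUNX1 without ETS1 and 62.2% with neither. A match is a description of the letters and does not show a bound site.

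**Figure D5:**
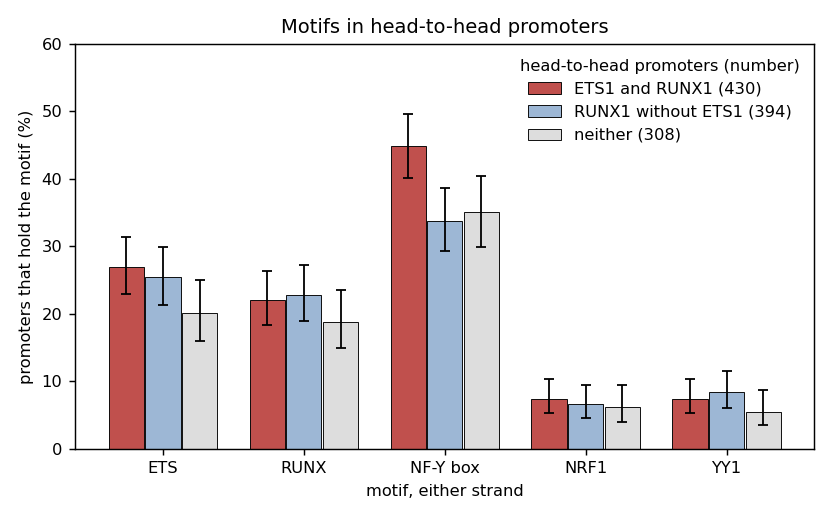
Head-to-head promoters that hold each motif, in percent with 95% Wilson intervals, for members (red, 430 promoters), pairs with RUNX1 without ETS1 (blue, 394) and pairs with neither (grey, 308). The NF-Y box stands at 44.9% in members, against 33.8% and 35.1%, while the ETS and RUNX bars overlap in their intervals.

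Motifs were also counted around the summits. The 151 bases centred on the mean ETS1 summit could be read in full for 288 members, and 13.9% held the ETS motif (10.4 to 18.4) and 10.4% the RUNX motif (7.39 to 14.5). Around the mean RUNX1 summit, readable in 270 members, 16.3% held the ETS motif and 14.4% the RUNX motif. The CCAAT box was at 28.5% of these RUNX1 summits (23.5 to 34.2), against 20.7% of 251 RUNX1 summits without ETS1 near 2 or more genes (16.2 to 26.2), with overlapping intervals. For the ETS and RUNX motifs, at RUNX1 summits without ETS1 near 2 or more genes the shares were 17.1% (13.0 to 22.3) and 14.7% (10.9 to 19.7), with intervals that overlap those of members. By tertiles of the ETS1 to RUNX1 fold ratio, the RUNX motif was at 15.7% (9.61 to 24.7), 11.6% and 4.81% (2.07 to 10.8) of ETS1 summits from the lowest to the highest tertile. These are 14 of 89, 11 of 95 and 5 of 104 summits, with overlapping intervals. The ETS motif was at 10.1%, 15.8% and 15.4% in the same tertiles, also with overlapping intervals. The 37.7% of members that could be read are those whose summits lie near a listed start.

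Genes of DNA repair, replication and RNA synthesis often touched members. Of 7192 coding genes with a close neighbour, 1528 (21.2%) touched a member, beside which the lists can be read. Over all coding genes, 18.1% had an ETS1 region and 44.0% a RUNX1 region within 1000 bp of an end by its midpoint. ETS1 regions lay at 30 of all 56 listed DNA repair and replication genes (53.6%) and RUNX1 regions at 45 (80.4%). For RNA polymerases and splicing they lay at 20 and 28 of 40 genes. Whether these lists touched members beyond their general share of ETS1 regions was not tested. The 21.2% covers close neighbours in every orientation, while 12 of 19 members at the DNA repair and replication genes were head-to-head. Of 37 DNA repair and replication genes with a close neighbour, 20 (54.1%) touched a member, among them the replicative helicase subunits MCM2, MCM4 and MCM7, the sliding clamp PCNA, the polymerase subunits POLD1 and POLE, and the mismatch repair gene MSH3. Of 28 genes of RNA polymerases and splicing, 14 (50%) did, including POLR2A, the largest subunit of RNA polymerase II. The share was 24.0% for mitochondrial energy genes (6 of 25), 22.9% for respiratory complex I (8 of 35), 21.6% for cytosolic ribosomal proteins (8 of 37) and 29.6% for ZNF genes (42 of 142). Proteasome genes gave 6 of 18, mitochondrial ribosomal proteins 13 of 52, protein folding 8 of 18, nucleotide synthesis 4 of 11, and tRNA synthetases with translation factors 5 of 16.

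Lists tied to cell identity held few genes with a close neighbour. Of 4 T-lineage factors with one, LEF1 and LYL1 touched members, and of 8 T-cell receptor signalling genes LAT and PLCG1 did. LAT is the membrane scaffold of the receptor and PLCG1 the phospholipase it recruits. STAT3, STAT5A and STAT5B, of 5 JAK-STAT and survival genes with a close neighbour, touched members. No gene did of 11 markers of non-blood tissues, 3 B-lineage and 5 myeloid or erythroid markers with a close neighbour. The 2 T-cell marker genes with a close neighbour did not touch a member either. Over all coding genes with a close neighbour the share was 21.2%. With counts this small, no difference between lineages is drawn.

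A list of 20 close pairs familiar from textbooks showed the range at single loci. Both genes lay near a member in 10 pairs, beside 16.9% of all close pairs and 38.2% of head-to-head pairs, 2 had RUNX1 without ETS1, 7 had neither and 1 had its ends more than 2000 bp apart. ATM/NPAT (chr11:108222729-108223303), the DNA damage kinase and an activator of histone transcription, had ETS1 at 5.67 and 5.56-fold and RUNX1 at 16.0 and 16.6-fold. TK1/AFMID, where TK1 is the S-phase thymidine kinase, had ETS1 at 5.98 and 4.0-fold and RUNX1 at 22.6 and 22-fold. In both pairs RUNX1 stood above ETS1 in every library. The reverse held at HSPD1/HSPE1, with ETS1 at 12 and 12.1-fold and RUNX1 at 8.34 and 8.0-fold, and at MCM4/PRKDC, a helicase subunit and the kinase of end joining, with ETS1 at 12.8 and 11.3-fold and RUNX1 at 5.28 and 4.96-fold. PSMB9/TAP1, the immunoproteasome subunit and peptide transporter of antigen presentation, had ETS1 at 7.01 and 7.96-fold and RUNX1 at 14.3 and 12.9-fold.

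Pairs outside the membership included tissue-restricted and housekeeping genes alike. CD3D/CD3G, subunits of the T-cell receptor complex 1639 bp apart, had RUNX1 at 15.4 and 15.8-fold without a reproducible ETS1 region near both, and SARS2/MRPS12 had RUNX1 at 14.1 and 14.6-fold. The collagen IV pairs COL4A1/COL4A2, COL4A3/COL4A4 and COL4A5/COL4A6, which form basement membranes, had neither factor, and so did HARS1/HARS2, RECQL/GOLT1B and TCP1/ACAT2. TCP1 and ACAT2 each lay near a member with their other neighbour, MRPL18 and SOD2.

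Members at zinc finger genes had median folds of 6.11 for ETS1 and 9.18 for RUNX1, and those at mitochondrial ribosomal genes 5.30 and 9.75, beside 5.99 and 12 in all members. Where both genes were ZNF genes, as at ZNF382/ZNF529 and ZNF345/ZNF790 on chromosome 19, the mean folds were 5.25 and 4.34 for ETS1 and 6.52 and 5.99 for RUNX1. ZNF446/ZNF324 (chr19:58475487-58476699), in head-to-tail order, was the strongest of these, with ETS1 at 16.9 and 18.0-fold and RUNX1 at 43.0 and 43.8-fold. ZNF568/ZNF829, printed above, had ETS1 at 5.66 and 5.77-fold and RUNX1 at 5.32 and 3.57-fold. MRPL46/MRPS11, the pair of mitochondrial ribosomal genes, had ETS1 at 4.38 and 3.80-fold and RUNX1 at 6.22 and 6.52-fold.

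The limit of 1000 bp fell between regions at nearly the same distance. Just inside it, with the second gene 995 to 998 bp from the midpoint, were FXR2/SHBG with mean folds of 7.66 for ETS1 and 16.3 for RUNX1, RMND5A/RNF103-CHMP3 with 18.1 and 8.46, and LEF1/LOC124900752 with 5.37 and 73.2. Just outside it, with the second gene 1013 to 1015 bp away, were SREBF2/CCDC134 with 3.35 and 16.8, CCDC107/ARHGEF39 with 4.80 and 12.3, and EEF1G/TUT1 with 9.19 and 12.1. The widest gap among members was 1432 bp at ICAM5/ICAM4, genes of intercellular adhesion molecules in head-to-tail order, with mean folds of 4.84 for ETS1 and 10 for RUNX1. The members with most genes were MMP24OS/MMP24-AS1-EDEM2/MMP24/EIF6 and 3-gene clusters such as H2AC7/H3C4/H2BC7, which had ETS1 at 30.8 and 32.8-fold and RUNX1 at 19.6 and 19.4-fold.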

How the data were processed

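CUT&Tag libraries of ETS1 and RUNX1 (2 each) from 6T-CEM cells were analysed from the authors' peak lists on hg38. Per the submitters' processing notes, bcl2fastq 2.17, Bowtie2 and MACS3 3.0.0a6 were used; read filters and duplicate handling are not stated there. Each deposited list gives, per peak, the fold (a ratio over IgG at the summit), the −log10 p and q values and the summit. The lowest −log10 q was 5.00 to 5.03. Depth is unknown, so no interval for a single fold is given.

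Peaks on chromosomes 1 to 22 and X were merged per antibody in Python 3.11.15 with pandas 2.3.3, numpy 2.4.6 and scipy 1.17.1. Gene ends of 19839 coding genes came from RefSeq GRCh38.p14, and strands, known for 79.7%, from its promoter table; 135 genes listed on scaffolds were left out. In a member, each library's strongest peak gives the fold and summit. A pileup was solved from fold and −log10 p, within 0.01 or a relative 5e-05, for every member peak. Shares have 95% Wilson intervals, and libraries were compared by exact permutation. The steps were tested on simulated data. The members, gene lists and tests were chosen with earlier results of these data known. Members were named by rank of fold or ratio, gap, number of genes, the limit of 1000 bp, or 2 genes of the same list. Other peak thresholds, overlaps, distances and left-out libraries were tried. A few named pairs are not reported here.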

Additional observations from a re-analysis of the deposited data

How the results depend on the processing

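Of 98 recomputed values, 73 counted as unchanged, 22 as moved and 3 changed sign, and the cause was not tested. Pair shares, differences between settings or folds and summit distances counted as unchanged within their interval or spread. Member counts were judged by a set ratio. The library comparisons were judged by sign and significance, and values in −log10 q or pileup by sign alone. Alternatives for the differences between gene settings were chosen after seeing the data. Keeping peaks whose −log10 q reached 20, there were 448 members, 10.3% of close pairs had a member (15.2% at a −log10 q of at least 10), the excess of ETS1 at RUNX1 regions near 2 or more genes was 15.3 percentage points (18.3 as reported), and head-to-head pairs exceeded head-to-tail pairs by 15.1 points (23.3 as reported). With a reciprocal overlap of 50% there were 506 members, at 11.4% of close pairs, and a head-to-head excess of 18.0 points. With gene ends within 500 or 2000 bp, 11.8% and 22.3% of close pairs had a member, and at 2000 bp the head-to-head excess was 15.3 points. The fold difference of members minus single-end regions was -0.0700, -0.0502 and 0.310 for ETS1 at a −log10 q of at least 20, within 500 bp and within 2000 bp, and -1.59 and 0.288 for RUNX1 at a −log10 q of at least 20 and with reciprocal overlap. The median distance between ETS1 and RUNX1 summits was 53.0 and 52.2 bp at a −log10 q of at least 10 and 20, and 49.5 and 61.2 bp within 500 and 2000 bp.

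Leaving out each library in turn gave 768 to 853 members, 17.0% to 18.8% of close pairs, excesses of 18.3 to 18.8 and 23.7 to 26.2 points, fold differences of 0.135 to 0.176 for ETS1 and -1.32 to -0.747 for RUNX1 (the last without ETS1 library 2), and summit distances of 55 to 63.0 bp. The difference in summits near 2 or more genes was 8.38 to 8.85 points, and that in distance from the middle -13.5 to -2.75 bp. With the replicate number as a block, both differences were as reported (8.61 points and -8.50 bp, exact p = 0.5 each, the smallest that 2 pairs allow). Deviations of same-numbered libraries had r = 0.0226 over 4953 regions, so the numbers were not taken to pair the libraries. Absolute depth is unknown, and IgG was seen only through the fold and p-value.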

Other observations

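The 4 chromosomes with most members differed in how they compared with their share of genes. Chromosome 19 held 96 of the 763 regions (12.6%), against 15.5% of shared regions at a single gene end and 7.11% of coding genes. Chromosome 17 held 80 (10.5%), against 8.43% and 5.83%. Chromosome 1 held 70 (9.17%), against 10.2% and 10.3%. Chromosome 11 held 59 (7.73%), against 5.59% and 6.54%. Of 378 head-to-head pairs with RUNX1 without ETS1, 78 had an ETS1 peak in at least 1 library near them.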
